A study of Zea mays with 12 samples.

Results

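Chromatin regulator genes other than the Polycomb genes fie and mez were followed in maize endosperm, the part of the kernel that feeds the embryo, at 13 days after pollination. A gene was a member when its symbol or a RefSeq synonym consisted of 1 of 25 chromatin gene prefixes, such as hda, sdg, mbd, met or nfd, followed by digits alone, and the brightest probe set stood for the gene. The rule used names and brightness and no comparison between genotypes. It found 49 genes among the 1108 genes that an annotated probe set names, on 65 probe sets. The 49 comprised 12 genes of DNA methylation, 5 of histone acetylation, 9 of histone deacetylation, 5 of histone methylation, 10 grouped with histone chaperones and nucleosome assembly, 7 linker histone and architectural protein genes and 1 bromodomain protein gene. No gene with a nucleosome remodelling prefix (chr, chb or chc) was found, and 17 of the 25 prefixes had a member.

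The genotypes were the hybrid B73xMo17, the reciprocal hybrid Mo17xB73, the inbred line B73 and the inbred line Mo17, and the labels name no transgene or treatment. Each was measured on 3 of the 12 arrays, with RNA of field-grown endosperm pooled from 6 ears, with 6 endosperms per ear in the growth protocol and 5 in the design text. All genotypes of 1 replicate number were crossed on the same date, so replicates 1, 2 and 3 stand for 3 crossing dates. The female parent is taken to be the first one written, by maize convention. Endosperm then carries 2 genome copies of the first-written parent and 1 of the other, and the reciprocal hybrids also differ in the mother plant that bore the kernel. The tissue is a mixture of cell types, and fewer cells of a type and less RNA per cell cannot be told apart in it.

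DNA in the nucleus is wound on histones, and the enzymes that add or remove acetyl and methyl groups on histones or methyl groups on cytosines set how open a gene is to transcription. Chaperones of the NAP1 and MSI1 types carry histones to and from DNA, and linker histones and HMG-box proteins bind the assembled fiber. In endosperm, maternal and paternal chromosomes differ in DNA and histone methylation at imprinted genes, and in Arabidopsis the central cell loses DNA methylation before fertilization.

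Signal on the 12 arrays is the authors' MAS5 value, multiplied per array by a factor of 0.886 to 1.29 that gave all arrays the same median over the brighter probe sets. Replicates 1 and 2 of B73xMo17 were the dimmest as deposited, with 2%-trimmed means of 550 and 542 against 687 to 781 on the other arrays, and took the largest factors. Differences are on the log2 scale with their standard error (SE), and a gene was called when limma's p, adjusted by Benjamini-Hochberg over 10708 probe sets, was under 0.05. All 49 members passed the filter on dim signal. The median SD within a genotype was 0.13 on the log2 scale over members, from 0.05 to 0.29 (met2), and 0.15 over all tested probe sets. In every comparison below, expression was not separated from sequence differences between B73 and Mo17 at the probes. Signal of different genes is not compared, since each probe set binds its target to a different degree.

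Marker genes of other cell types moved with genotype, and their part in the results below was not tested. Of the starchy endosperm list, 8 of 10 tested genes were higher in B73 than in Mo17, and 8 were higher in B73xMo17 than in Mo17xB73. Its summed signal was 105738 to 120977 in B73xMo17, 72496 to 85067 in Mo17xB73, 102965 to 112764 in B73 and 61164 to 66458 in Mo17. Single genes weighed unequally in that sum. Its gene dzs18 averaged 18368 in B73xMo17, 4449 in Mo17xB73, 17003 in B73 and 12.7 in Mo17. Its gene ae1 averaged 12249, 10579, 11100 and 9933 in the same order. Both embryo surrounding region genes and 2 of 4 tested basal transfer layer genes were lower in B73 than in Mo17 and lower in B73xMo17 than in Mo17xB73. The summed basal transfer layer signal was 961 to 4692 in B73xMo17, 4313 to 13223 in Mo17xB73, 964 to 7303 in B73 and 3238 to 12185 in Mo17. The summed embryo surrounding region signal was 137 to 355 in B73xMo17, 558 to 1004 in Mo17xB73, 60.6 to 286 in B73 and 284 to 1215 in Mo17. Of 3 tested aleurone genes, 2 were lower in B73 than in Mo17 and 1 was lower in B73xMo17 than in Mo17xB73, with sums of 420 to 560 in B73xMo17, 486 to 702 in Mo17xB73, 409 to 431 in B73 and 539 to 660 in Mo17. The defining markers mrp1 (basal transfer layer), c1 (aleurone), and lec1 and kn1 (embryo) were below the filter on dim signal, and so were p1, pep1 and ssu1 of green tissue and pericarp, whose remaining gene me3 was not called between the inbreds or between the hybrids. Of 3 tested embryo genes, 1 was higher and 1 lower in B73 than in Mo17, and 1 was higher in B73xMo17 than in Mo17xB73.

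Between the inbreds, 21 of the 49 genes were called, 16 higher and 5 lower in B73. That is 42.9% of the members, against 53.6% of all tested probe sets, of which 27.5% were higher and 26.1% lower. The median log2 difference was 0.08 over the members and 0.01 over all tested probe sets. The members called higher in B73 included 4 of the 5 acetylation genes, and 3 members differed more than 2-fold: ada2, hag101 and SDG123. On the deposited values without scaling, where the median of all tested probe sets shifted by -0.14, the members called were 15, with 9 higher and 6 lower in B73. The share of all probe sets called at that setting is not given, so this count describes no trait of the members. A fit that took crossing date as a block called 32, with 22 higher and 10 lower, against 63.4% of all probe sets (32.2% higher, 31.1% lower), and all 21 were among them.

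**Figure D1:**
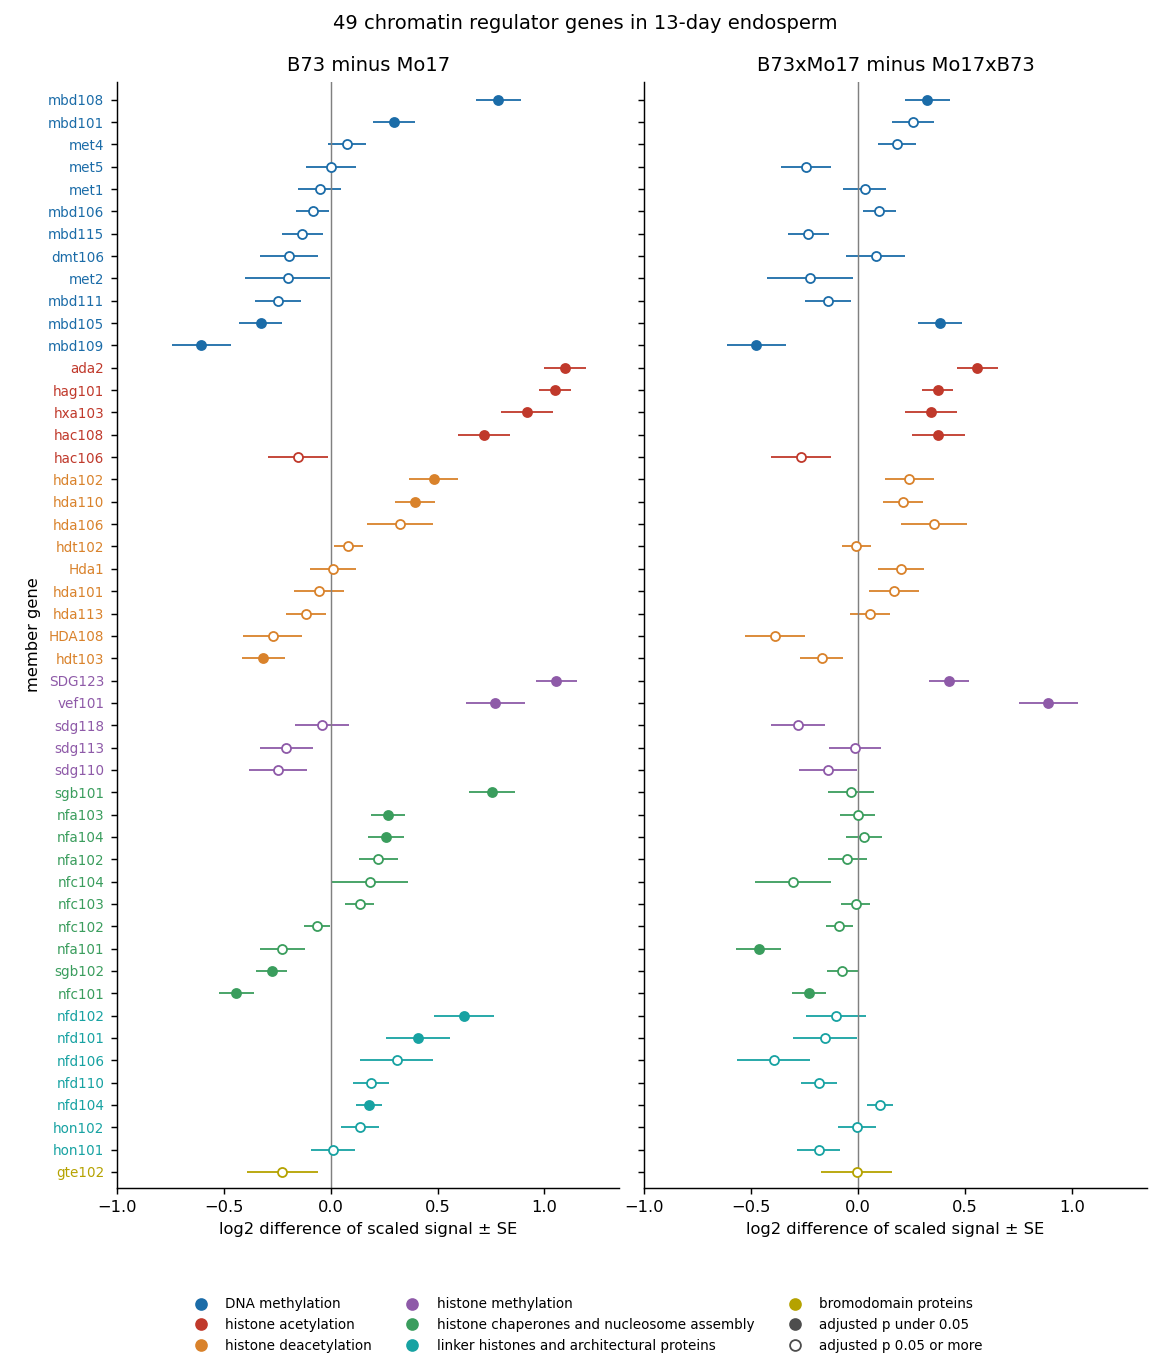
Log2 difference of scaled signal, with its SE (n = 3 arrays per genotype), for the 49 chromatin genes grouped by role. The left panel gives B73 minus Mo17 and the right panel B73xMo17 minus Mo17xB73, and filled points passed an adjusted p of 0.05 (21 on the left, 11 on the right). The acetylation genes ada2, hag101, hxa103 and hac108 lie to the right of 0 in both panels, and mbd105 lies on opposite sides.

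Between the reciprocal hybrids, whose parental genomes stand in opposite dosage, 11 of the 49 genes were called, 8 higher and 3 lower in B73xMo17. This was 22.4% of the members, against 31.2% of all tested probe sets (15.3% higher, 15.9% lower), and no member differed more than 2-fold. Of the 11 genes, 10 were also called between the inbreds: 90.9% of the hybrid calls and 47.6% of the inbred calls. Over all tested probe sets the shares were 80.6% and 46.9%, with the same direction in 97.4% of the probe sets called in both. The direction was shared by 9 of the 10 and was opposite for mbd105. With crossing date as a block, 21 members were called between the hybrids, 11 higher and 10 lower, against 44.5% of all probe sets (22% higher, 22.5% lower).

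The counts between the hybrids moved with the handling of the dim B73xMo17 arrays. On the deposited values 13 members were called, 1 higher and 12 lower in B73xMo17, where the median of all tested probe sets shifted by -0.23, and 4 of the 11 genes were shared. The share of all probe sets called on the deposited values is not given, so the 13 describe no trait of the members. Without both dim arrays only vef101 and nfa101 were called, against 15.1% of all probe sets. Without B73xMo17 replicate 1, Mo17xB73 replicate 2 or Mo17xB73 replicate 3 the count was 6, and without B73xMo17 replicate 2 it was 7.

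Histone acetylation genes had the largest median difference between the inbreds of the role groups, 0.92 on the log2 scale. ADA2 and GCN5, known from yeast and plants, work together in coactivator complexes that acetylate histone H3, with GCN5 as the enzyme and ADA2 as its adaptor, and hag101 is listed also as gcn5. Signal of ada2 (LOC542031) was 733, 674 and 619 in B73xMo17, 464, 456 and 452 in Mo17xB73, 867, 775 and 735 in B73 and 397, 338 and 377 in Mo17. The 4 genotypes did not overlap, in the order B73, B73xMo17, Mo17xB73 and Mo17. The gene was 2.14-fold higher in B73 than in Mo17 (1.10 ± 0.10, adjusted p = 9.89e-07) and 1.47-fold higher in B73xMo17 than in Mo17xB73 (0.56 ± 0.10, adjusted p = 0.00133). For hag101 (LOC542030) the values were 869, 857 and 862 in B73xMo17, 655, 683 and 661 in Mo17xB73, 947, 911 and 932 in B73 and 477, 423 and 450 in Mo17. The same order held, again with no overlap. It was 2.07-fold higher in B73 than in Mo17 (1.05 ± 0.07, adjusted p = 9.62e-08) and 1.29-fold higher in B73xMo17 than in Mo17xB73 (0.37 ± 0.07, adjusted p = 0.00265).

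The other acetylation genes were hxa103, hac108 and hac106, whose names place them with acetyltransferase or coactivator families. Signal of hxa103 (LOC542677) was 359, 376 and 342 in B73xMo17, 303, 268 and 279 in Mo17xB73, 509, 412 and 488 in B73 and 287, 216 and 245 in Mo17. Its Mo17xB73 and Mo17 arrays overlapped, and the B73 arrays lay above all others. It was 1.89-fold higher in B73 than in Mo17 (0.92 ± 0.12, adjusted p = 3.82e-05), and the difference between the hybrids was 0.34 ± 0.12 (adjusted p = 0.0492). For hac108 (LOC541950) the arrays read 502, 529 and 591 in B73xMo17, 452, 365 and 435 in Mo17xB73, 552, 515 and 570 in B73 and 378, 282 and 342 in Mo17. B73xMo17 overlapped B73, Mo17xB73 overlapped Mo17, and those pairs lay apart from each other. It was 1.64-fold higher in B73 than in Mo17 (0.72 ± 0.12, adjusted p = 0.000332), with 0.38 ± 0.12 between the hybrids (adjusted p = 0.0359). Only hac106 (LOC542083) of the 5 was not called in either comparison: its difference was -0.15 ± 0.14 between the inbreds (adjusted p = 0.378) and -0.27 ± 0.14 between the hybrids (adjusted p = 0.160). The inbred calls of ada2, hag101, hxa103 and hac108 held under all 22 alternative settings tried. Of their hybrid calls, those of ada2 and hag101 were each lost in 2 of the 22, that of hac108 in 7 and that of hxa103 in 13, and the lowest differences were 0.32 for ada2, 0.13 for hag101, 0.14 for hac108 and 0.10 for hxa103.

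**Figure D2:**
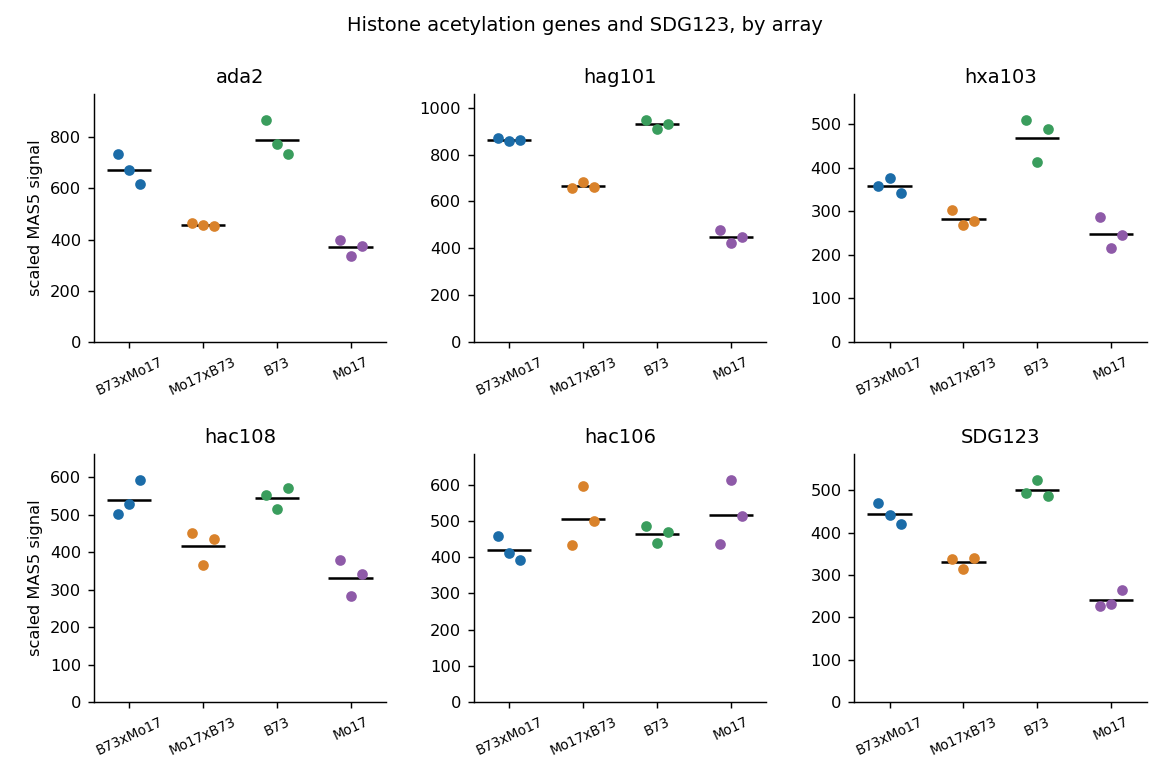
Scaled signal on every array (points) and the geometric mean of 3 arrays (bars) for ada2, hag101, hxa103, hac108, hac106 and SDG123 in B73xMo17, Mo17xB73, B73 and Mo17. For ada2, hag101 and SDG123 both hybrids lie between the inbreds, B73xMo17 nearer B73, while hac106 overlaps in all genotypes.

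Histone methylation genes held the SET-domain gene SDG123, with the domain that transfers methyl groups to histone lysines, and 3 further sdg genes. Signal of SDG123 (LOC542096) was 469, 442 and 421 in B73xMo17, 339, 314 and 339 in Mo17xB73, 494, 523 and 485 in B73 and 227, 232 and 265 in Mo17. All B73xMo17 arrays lay above all Mo17xB73 arrays, which in turn lay above all Mo17 arrays. It was 2.08-fold higher in B73 than in Mo17 (1.06 ± 0.09, adjusted p = 1.02e-06) and 1.34-fold higher in B73xMo17 than in Mo17xB73 (0.43 ± 0.09, adjusted p = 0.00530). The dimmest 2 sdg members were not called: sdg118 (LOC542089) read 113, 130 and 113 in B73xMo17, 143, 145 and 146 in Mo17xB73, 125, 152 and 138 in B73 and 140, 149 and 138 in Mo17. sdg110 (LOC542662) read 214, 194 and 209 in B73xMo17, 239, 185 and 262 in Mo17xB73, 194, 195 and 209 in B73 and 262, 218 and 232 in Mo17. Their inbred differences were -0.04 ± 0.13 and -0.25 ± 0.14, and that of sdg113 (LOC541980) was -0.21 ± 0.12 (adjusted p = 0.172).

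The remaining gene of that group, vef101 (LOC542512), is listed also as an EMF-like gene. Its name is that of the VEFS family, which includes the Su(z)12-type subunits of the Polycomb complex, and the rule kept it because only fie and mez genes were left out. Signal was 273, 386 and 345 in B73xMo17, 187, 160 and 192 in Mo17xB73, 348, 320 and 291 in B73 and 178, 196 and 188 in Mo17. Each hybrid overlapped its mother, and all B73xMo17 and B73 arrays lay above all Mo17xB73 and Mo17 arrays. It was 1.71-fold higher in B73 than in Mo17 (0.77 ± 0.14, adjusted p = 0.000445) and 1.85-fold higher in B73xMo17 than in Mo17xB73 (0.89 ± 0.14, adjusted p = 0.000662). No other member differed more between the hybrids, and the call held in all 21 alternatives that gave it a value. Among the Polycomb genes outside the set, fie1 was higher by 0.49 ± 0.07 and mez1 by 0.58 ± 0.08 in B73xMo17 than in Mo17xB73 (adjusted p = 0.000348 and 0.000356), and by 0.50 ± 0.07 and 0.60 ± 0.08 in B73 than in Mo17 (adjusted p = 5.98e-05 and 5.12e-05). The other tested Polycomb genes were not called, and mez3 was too dim to test. The summed Polycomb signal was 6730 to 7209 in B73xMo17, 4756 to 5288 in Mo17xB73, 7109 to 7567 in B73 and 5054 to 5433 in Mo17.

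Of the 12 DNA methylation genes, 4 were called between the inbreds and 3 between the hybrids, and all of these were mbd genes, whose products carry the methyl-CpG-binding domain. No gene of a DNA methyltransferase name was called in either comparison. The maintenance CG methyltransferase gene met1 (LOC542082) read 2372, 2581 and 2548 in B73xMo17, 2240, 2500 and 2608 in Mo17xB73, 2085, 2740 and 2757 in B73 and 2608, 2566 and 2617 in Mo17. All genotypes overlapped, and the 95% interval of the difference was -0.27 to 0.17 between the inbreds and -0.19 to 0.25 between the hybrids. The chromomethylase gene met5, which maintains CHG methylation, read 931, 1091 and 881 in B73xMo17, 1102, 1277 and 1059 in Mo17xB73, 957, 1217 and 1111 in B73 and 994, 1184 and 1101 in Mo17. Its interval was -0.25 to 0.25 between the inbreds and -0.50 to 0.01 between the hybrids. Another met5 probe set gave -0.37 between the hybrids (interval -0.68 to -0.07, adjusted p = 0.0616). A further one gave -0.26 (interval -0.64 to 0.11, adjusted p = 0.268). Between the inbreds that further probe set gave -0.30 (interval -0.68 to 0.08, adjusted p = 0.162) and was lower in B73 on all 3 dates. In limma with crossing date as a block it was called between the inbreds (adjusted p = 0.0313). The other tested met5 probe sets, at 0.03 and -0.00 between the inbreds, were not. Each tested met5 probe set was lower in B73xMo17 than in Mo17xB73 on all 3 dates. For met2, the other chromomethylase gene, the arrays read 499, 709 and 601 in B73xMo17, 559, 864 and 703 in Mo17xB73, 488, 765 and 733 in B73 and 642, 851 and 763 in Mo17. The genotypes overlapped across dates, with intervals of -0.64 to 0.23 and -0.66 to 0.21 that hold differences of over 1.5-fold. Within each date B73xMo17 read below Mo17xB73, and B73 read below Mo17. Both met2 and met5 were called between the hybrids with crossing date as a block (adjusted p = 0.0372 and 0.0138), and met2 between the inbreds too (adjusted p = 0.0419), lower in B73xMo17 than in Mo17xB73 and lower in B73 than in Mo17.

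The genes met4 and dmt106, named as DNA methyltransferases, were not called in either comparison. Signal of met4 (LOC542067) was 368, 350 and 350 in B73xMo17, 326, 298 and 319 in Mo17xB73, 345, 337 and 383 in B73 and 347, 328 and 334 in Mo17. Its B73xMo17 arrays lay above the Mo17xB73 arrays, with a difference of 0.18 ± 0.09 that was not called (adjusted p = 0.140). Signal of dmt106 (LOC541971) was 470, 410 and 527 in B73xMo17, 432, 370 and 536 in Mo17xB73, 428, 399 and 445 in B73 and 467, 457 and 534 in Mo17. Its genotypes overlapped.

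The methyl-CpG-binding genes went both ways. mbd108 read 489, 461 and 409 in B73xMo17, 359, 350 and 375 in Mo17xB73, 596, 527 and 502 in B73 and 305, 344 and 294 in Mo17. No genotype overlapped another. It was 1.72-fold higher in B73 than in Mo17 (0.78 ± 0.10, adjusted p = 3.82e-05), and the difference between the hybrids was 0.32 ± 0.10 (adjusted p = 0.0327), a call lost in 7 of 22 alternatives. mbd109 read 258, 257 and 299 in B73xMo17, 304, 454 and 386 in Mo17xB73, 265, 317 and 286 in B73 and 416, 456 and 444 in Mo17. It was lower in B73 than in Mo17 (-0.61 ± 0.14, adjusted p = 0.00266) and lower in B73xMo17 than in Mo17xB73 (-0.48 ± 0.14, adjusted p = 0.0213), with no overlap in either comparison, and its hybrid call was lost in 5 of 22 alternatives. mbd101 was higher in B73 than in Mo17 (0.30 ± 0.10, adjusted p = 0.0212).

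The signal of mbd105 was 438, 378 and 352 in B73xMo17, 302, 298 and 293 in Mo17xB73, 303, 323 and 323 in B73 and 410, 419 and 363 in Mo17. Its B73xMo17 arrays lay in the range of the Mo17 arrays or near it, and the Mo17xB73 arrays lay just below the B73 arrays. Each hybrid thus stood near its father on the scaled values. On the deposited values B73xMo17 stood nearer B73, at 0.82 ± 0.59 (SD, n = 3 dates) where Mo17 is 0 and B73 is 1. mbd105 was lower in B73 than in Mo17 (-0.33 ± 0.10, adjusted p = 0.0166) and 1.30-fold higher in B73xMo17 than in Mo17xB73 (0.38 ± 0.10, adjusted p = 0.0144). Each of these calls was lost in 3 of 22 alternatives. The difference of B73xMo17 minus Mo17 was -0.03 ± 0.10 and that of Mo17xB73 minus B73 was -0.09 ± 0.10, with intervals of -0.26 to 0.19 and -0.31 to 0.14. Mo17xB73 was lower than its mother Mo17 by a called amount (-0.41 ± 0.10, adjusted p = 0.0192), while B73xMo17 minus its mother B73 was 0.30 ± 0.10 (adjusted p = 0.0950). The call of Mo17xB73 minus Mo17 was lost in 4 of 22 alternatives.

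Of 9 histone deacetylation genes, 3 were called between the inbreds, 2 higher and 1 lower in B73. Between the hybrids the fit without crossing date called 0, with 3 at an unadjusted p under 0.05. With crossing date as a block 3 were called (2 higher and 1 lower in B73xMo17). Those were hda106 and hda110, higher in B73xMo17, and HDA108, lower. The block also called hda106 (higher in B73) and HDA108 (lower in B73) between the inbreds. The deacetylase genes hda102 (LOC541953) and hda110 (LOC541972) were higher in B73 than in Mo17 (0.48 ± 0.12 and 0.40 ± 0.09, adjusted p = 0.00352 and 0.00319). hda101 and Hda1, both listed also as rpd3, were not called, with inbred differences of -0.06 ± 0.12 and 0.01 ± 0.11. HDA108 had a hybrid difference of -0.39 ± 0.14 (adjusted p = 0.0508 without the block). The dim hda106 (LOC541932) read 182, 184 and 190 in B73xMo17, 125, 156 and 156 in Mo17xB73, 165, 188 and 208 in B73 and 129, 180 and 141 in Mo17. Its B73xMo17 arrays lay above the Mo17xB73 arrays, and the difference of 0.36 ± 0.15 was called only with the block (adjusted p = 0.0953 without it).

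The plant-specific HD2 deacetylase genes hdt102 and hdt103 had the brightest probe sets of all members. hdt102 (LOC542636) read 9952, 10583 and 9290 in B73xMo17, 9514, 10595 and 9874 in Mo17xB73, 9271, 9985 and 10661 in B73 and 8953, 9633 and 9655 in Mo17. The genotypes overlapped, and the intervals of the differences were -0.07 to 0.23 between the inbreds and -0.16 to 0.14 between the hybrids. hdt103 (LOC542355) read 6634, 6917 and 6549 in B73xMo17, 6429, 8417 and 7906 in Mo17xB73, 6303, 6479 and 7232 in B73 and 7377, 8478 and 9111 in Mo17. All B73 arrays lay below all Mo17 arrays (-0.32 ± 0.10, adjusted p = 0.0183). Its 3 other probe sets gave -0.06, -0.05 and 0.20, none called, so the gene's probe sets disagreed.

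Of the 10 genes grouped with histone chaperones and nucleosome assembly, 5 were called between the inbreds (3 higher, 2 lower in B73) and 2 between the hybrids, both lower in B73xMo17. The 10 include sgb101 and sgb102, whose role is uncertain and whose synonyms carry the acetyltransferase family name GNAT. Without them the counts were 3 of 8 (2 higher, 1 lower) and 2 of 8. With crossing date as a block 8 of the 10 were called between the inbreds (5 higher, 3 lower in B73), against 63.4% of all probe sets. The block added nfa102 and nfc103, higher in B73, and nfa101, lower. nfa101 (LOC542113), a NAP1-type chaperone gene, read 2133, 2093 and 1953 in B73xMo17, 2405, 3357 and 2842 in Mo17xB73, 2235, 2411 and 2346 in B73 and 2482, 2863 and 2845 in Mo17. The B73xMo17 arrays lay below all others. It was the 1 member called between the hybrids (-0.47 ± 0.11, adjusted p = 0.00599) and not between the inbreds (-0.23 ± 0.11, adjusted p = 0.0883), and the hybrid call held in all 22 alternatives. With crossing date as a block it was called between the inbreds too, lower in B73 (adjusted p = 0.0325). The other NAP1-type genes nfa103 (LOC541933) and nfa104 (LOC542654) were higher in B73 than in Mo17 (0.27 ± 0.08 and 0.26 ± 0.08, adjusted p = 0.0137 and 0.0215). The call of nfa103 was lost in 3 of 22 alternatives and that of nfa104 in 5, where its difference went down to 0.11. Between the hybrids they gave -0.00 ± 0.08 and 0.03 ± 0.08.

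The MSI1-type WD40 protein gene nfc101 (LOC542087), listed also as rbap2, belongs to a family that serves in chromatin assembly factor 1 and in the Polycomb complex in other plants. It read 1928, 1957 and 2090 in B73xMo17, 2078, 2532 and 2413 in Mo17xB73, 1919, 2148 and 2034 in B73 and 2769, 2667 and 2839 in Mo17. B73 lay below Mo17 with no overlap (-0.44 ± 0.08, adjusted p = 0.000528). The hybrids overlapped by 1 array, with a difference of -0.23 ± 0.08 (adjusted p = 0.0473), a call that held in 9 of 22 alternatives. sgb101 (LOC541935) read 1599, 1316 and 1232 in B73xMo17, 1344, 1474 and 1401 in Mo17xB73, 2050, 1877 and 1618 in B73 and 1104, 1118 and 1052 in Mo17. The hybrids overlapped each other, and all their arrays lay below those of B73 and above those of Mo17. It was 1.69-fold higher in B73 than in Mo17 (0.75 ± 0.11, adjusted p = 6.49e-05), with -0.03 ± 0.11 between the hybrids. sgb102 (LOC541936) was lower in B73 than in Mo17 (-0.28 ± 0.07, adjusted p = 0.00678).

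Genes of linker histones and architectural proteins were called 3 times of 7 between the inbreds, all higher in B73. With crossing date as a block 6 of 7 were called, all higher in B73, against 32.2% of all probe sets called higher. The block added hon102, nfd106 and nfd110. Between the hybrids the fit without crossing date called 0, with 1 at an unadjusted p under 0.05, and the fit with the block called 3, all lower in B73xMo17. The linker histone H1 gene hon102 (LOC541964) read 6347, 7662 and 7042 in B73xMo17, 6527, 7359 and 7218 in Mo17xB73, 6184, 7195 and 7629 in B73 and 5991, 6648 and 6390 in Mo17. Its genotypes overlapped, with intervals of -0.06 to 0.33 between the inbreds and -0.20 to 0.19 between the hybrids, and with crossing date as a block it was called higher in B73 (adjusted p = 0.0361). The HMG-box gene nfd102 (LOC541987) was higher in B73 than in Mo17 (0.62 ± 0.14, adjusted p = 0.00260), and so was nfd104 (LOC541951) (0.18 ± 0.06, adjusted p = 0.0277), whose call was lost in 8 of 22 alternatives, with a lowest difference of 0.028. nfd101 (LOC542658) read 2708, 3339 and 3362 in B73xMo17, 3063, 3897 and 3502 in Mo17xB73, 3565, 5518 and 5007 in B73 and 3561, 3729 and 3165 in Mo17. On the first crossing date B73 and Mo17 were alike, and on the other two B73 stood above every other array (0.41 ± 0.15, adjusted p = 0.0345), and this call too was lost in 8 of 22 alternatives. nfd110 (LOC542007), listed also as ssrp1, encodes the SSRP1 subunit of the histone chaperone FACT. It read 1060, 1244 and 1064 in B73xMo17, 1251, 1362 and 1205 in Mo17xB73, 1491, 1387 and 1356 in B73 and 1266, 1273 and 1180 in Mo17. All B73 arrays lay above all B73xMo17 arrays. Of the histone-named genes outside the set, his1 and his2b5, the second was called higher in B73 than in Mo17 (44.8-fold), and neither was called between the hybrids. The bromodomain gene gte102 (LOC542112) was not called in either comparison (-0.23 ± 0.16 and -0.01 ± 0.16), but with the crossing date block it was called between the inbreds, lower in B73 (adjusted p = 0.0296).

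Each hybrid was compared with its mother and with its father. B73xMo17 minus B73 called 3 genes, all lower in the hybrid, which is 6.12% against 9.91% of all probe sets (3.84% lower, 6.07% higher): nfd101 (-0.57 ± 0.15, adjusted p = 0.0308), sgb101 (-0.42 ± 0.11, adjusted p = 0.0245) and nfd110 (-0.33 ± 0.08, adjusted p = 0.0253). The count was 0 or 1 when B73 replicate 1 or 2 or any B73xMo17 replicate was left out. Mo17xB73 minus Mo17 called 4 genes, which is 8.16% against 11.1% of all probe sets (7.92% higher, 3.14% lower). Higher in the hybrid were hag101 (0.57 ± 0.07, adjusted p = 0.000144), SDG123 (0.46 ± 0.09, adjusted p = 0.00640) and sgb101 (0.37 ± 0.11, adjusted p = 0.0453), and mbd105 was lower. That count was 2 without Mo17 replicate 1 or without Mo17xB73 replicate 1 or 3. With crossing date as a block the counts were 8 and 8, against 20.4% and 18.9% of all probe sets.

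Against the father, B73xMo17 minus Mo17 called 17 members (12 higher, 5 lower), 34.7% against 49.5% of all probe sets (25.2% higher, 24.3% lower). The largest were hag101 at 0.94 ± 0.07, SDG123 at 0.88 ± 0.09, ada2 at 0.87 ± 0.10 and vef101 at 0.83 ± 0.14. On the deposited values the count was 29, with 4 higher and 25 lower. The medians over all probe sets there were 133, 127 and 166 in B73xMo17 against 173, 169 and 172 in Mo17. Mo17xB73 minus B73 likewise called 17 (3 higher, 14 lower), 34.7% against 39.6% of all probe sets (19.5% higher, 20.1% lower), led by vef101 at -0.83 ± 0.14 and ada2 at -0.79 ± 0.10. That count was 8 without B73 replicate 3, 10 without Mo17xB73 replicate 3, 11 without B73 replicate 1 and 6 on the deposited values. The deposited medians were 178, 164 and 166 in Mo17xB73 against 160, 157 and 153 in B73. No share of all probe sets stands beside the counts of 29 and 6 on the deposited values, so these describe no trait of the members.

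Each hybrid was also set against a 2:1 parental mean, in which the signal of the mother counts 2 times and that of the father 1 time, as the genome copies do. For the 21 genes called between the inbreds, the position of each hybrid was computed per crossing date, with 0 at the Mo17 level and 1 at the B73 level. The median over the genes on the scaled values was 0.68 in B73xMo17 and 0.34 in Mo17xB73, where the 2:1 mean gives 0.667 and 0.333. The position of ada2 was 0.72 ± 0.05 in B73xMo17 and 0.21 ± 0.06 in Mo17xB73 (SD, n = 3 dates), that of SDG123 0.78 ± 0.11 and 0.35 ± 0.07, and that of hag101 0.86 ± 0.03 and 0.45 ± 0.08. mbd108 stood at 0.61 ± 0.05 and 0.20 ± 0.18. vef101 stood at 1.21 ± 0.56 in B73xMo17 and -0.07 ± 0.19 in Mo17xB73, and mbd105 at 0.15 ± 0.36 and 1.33 ± 0.37. Other genes also lay past a parent or in the other order, such as mbd109 at 1.13 ± 0.27 and 0.37 ± 0.36 and nfa103 at -0.21 ± 0.74 and 0.40 ± 0.52. For nfd101, whose inbreds were alike on the first date, the position has no usable value. On the deposited values B73xMo17 stood at 0.52 ± 0.30 for ada2 and 0.59 ± 0.32 for SDG123. For hag101 it stood at 0.64 ± 0.40 and for mbd108 at 0.29 ± 0.41. Mo17xB73 then stood at 0.15, 0.32, 0.43 and 0.14 for these genes in that order. mbd101 in B73xMo17 moved from 1.27 to -0.40. Quantile normalization, which gives all arrays the same distribution, put B73xMo17 at 0.73, 0.78, 0.89 and 0.60 for the same genes.

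No member was called against the 2:1 mean in the fit without crossing date. The counts of 0 stand beside 4.19% of all probe sets for B73xMo17 and 0.925% for Mo17xB73, with 8 and 2 members at an unadjusted p under 0.05. For vef101 the hybrid level was 332 in B73xMo17 against a 2:1 mean of 275 (0.27 ± 0.13, adjusted p = 0.223) and 179 in Mo17xB73 against 231 (-0.37 ± 0.12, adjusted p = 0.218). For mbd105 it was 388 in B73xMo17 against 343 (0.18 ± 0.09, adjusted p = 0.263) and 298 in Mo17xB73 against 370 (-0.31 ± 0.09, adjusted p = 0.162). The departures of the hybrids from their 2:1 means were then compared with each other, in a test added after seeing the data. It called 2 members, 4.08% against 7.85% of all probe sets (3.54% higher): vef101, at 0.64 ± 0.14 (adjusted p = 0.0191), and mbd105, at 0.49 ± 0.11 (adjusted p = 0.0168), both more positive in B73xMo17. fie1 (0.33 ± 0.07, adjusted p = 0.0171) and mez1 (0.39 ± 0.09, adjusted p = 0.0182) were called in the same direction. Neither member was called on the deposited values, without both dim arrays, or without Mo17xB73 replicate 2, and vef101 was not called without B73xMo17 replicate 2 or 3, nor mbd105 without B73xMo17 replicate 1 or Mo17xB73 replicate 3. With crossing date as a block 8 members were called, 2 more positive and 6 more negative in B73xMo17. The 2 were vef101 and mbd105, and the 6 were met5, nfa101, nfc104, sgb101, nfd106 and nfd110. The share of all probe sets called with the block is not given.

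**Figure D3:**
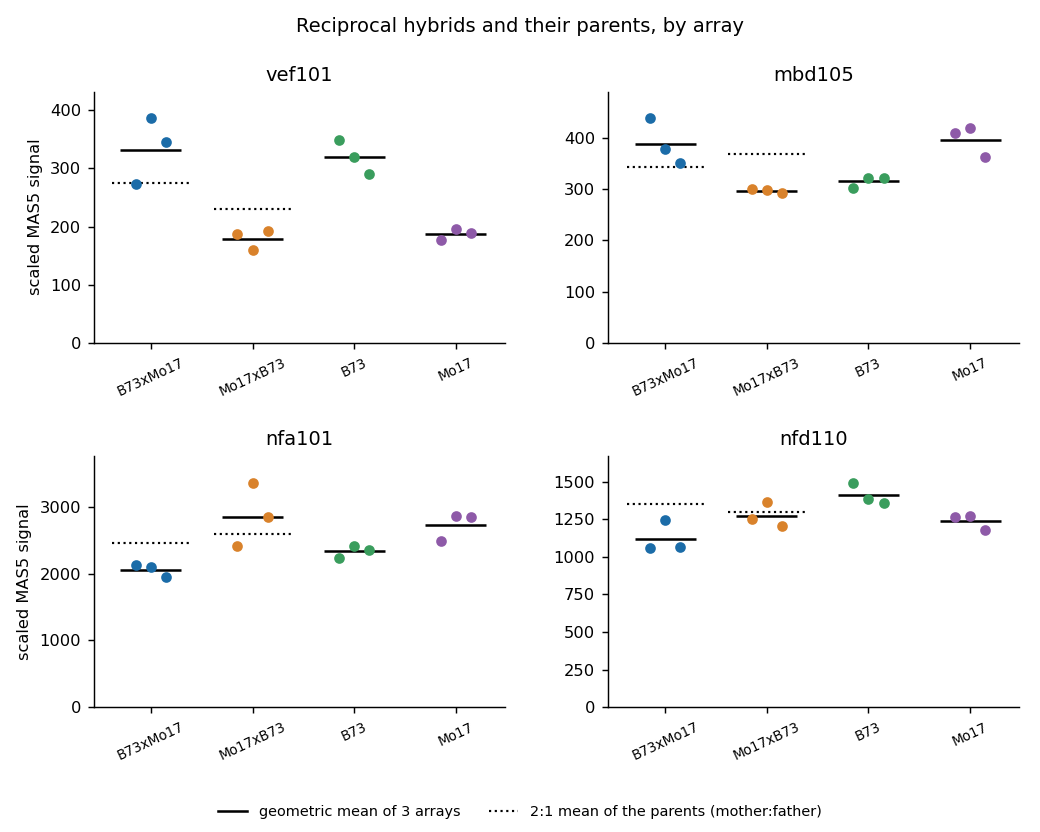
Scaled signal on every array (points), the geometric mean of 3 arrays (solid bars) and the 2:1 parental mean (dotted bars) for vef101, mbd105, nfa101 and nfd110. vef101 lies at 332 in B73xMo17 and 179 in Mo17xB73, beyond the dotted bars at 275 and 231, and mbd105 at 388 and 298 against 343 and 370.

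In B73xMo17 the chaperone and architectural genes lay mostly under the 2:1 mean. The departure was negative for 9 of 10 chaperone and assembly genes, with a median of -0.14, and for 6 of 7 linker histone and architectural genes, with a median of -0.07, where the median of all tested probe sets was -0.02. In Mo17xB73 it was negative for 4 of 10 and 3 of 7. Over all tested probe sets it was positive in 46.7% for B73xMo17 and 44.2% for Mo17xB73. Over the 49 members it was negative for 29 and 28. Other role groups leaned as well. The departure was negative for 7 of 12 DNA methylation genes in B73xMo17 and 10 of 12 in Mo17xB73. For histone deacetylation genes it was negative for 2 of 9 in B73xMo17 and 7 of 9 in Mo17xB73. The genes were read on the same arrays, so their signs are not independent. Without sgb101 and sgb102 the departure was negative for 8 of 8 chaperone and assembly genes in B73xMo17 and for 4 of 8 in Mo17xB73. None of these was called in the fit without crossing date: nfd110 read 1119 in B73xMo17 against a 2:1 mean of 1353 (-0.27 ± 0.08, adjusted p = 0.0600), nfd101 3121 against 4238 (-0.44 ± 0.13, adjusted p = 0.0821) and nfa101 2058 against 2461 (-0.26 ± 0.09, adjusted p = 0.125). With crossing date as a block, 7 members were lower in B73xMo17, against 18.1% of all probe sets called and 11.7% called lower: nfa101, nfc101, nfc104, nfd101, nfd106, nfd110 and mbd109 (adjusted p from 0.00793 to 0.0381). No member was called in Mo17xB73 with the block, where 3.94% of all probe sets were. In the list of DNA replication and cell cycle genes, 4 of 13 tested were lower in B73xMo17 than the 2:1 mean, and 7 of 13 were lower in B73xMo17 than in Mo17xB73. Between the inbreds 2 of the 13 were higher and 4 lower in B73. Their summed signal was 8854 to 10202 in B73xMo17, 11409 to 14075 in Mo17xB73, 10936 to 13135 in B73 and 11288 to 12444 in Mo17, and their part in the departures was not tested. On the deposited values 16 members were lower in B73xMo17 than the 2:1 mean, where the median of all tested probe sets shifted by -0.26. The share of all probe sets called there is not given, so the 16 describe no trait of the members.

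**Figure D4:**
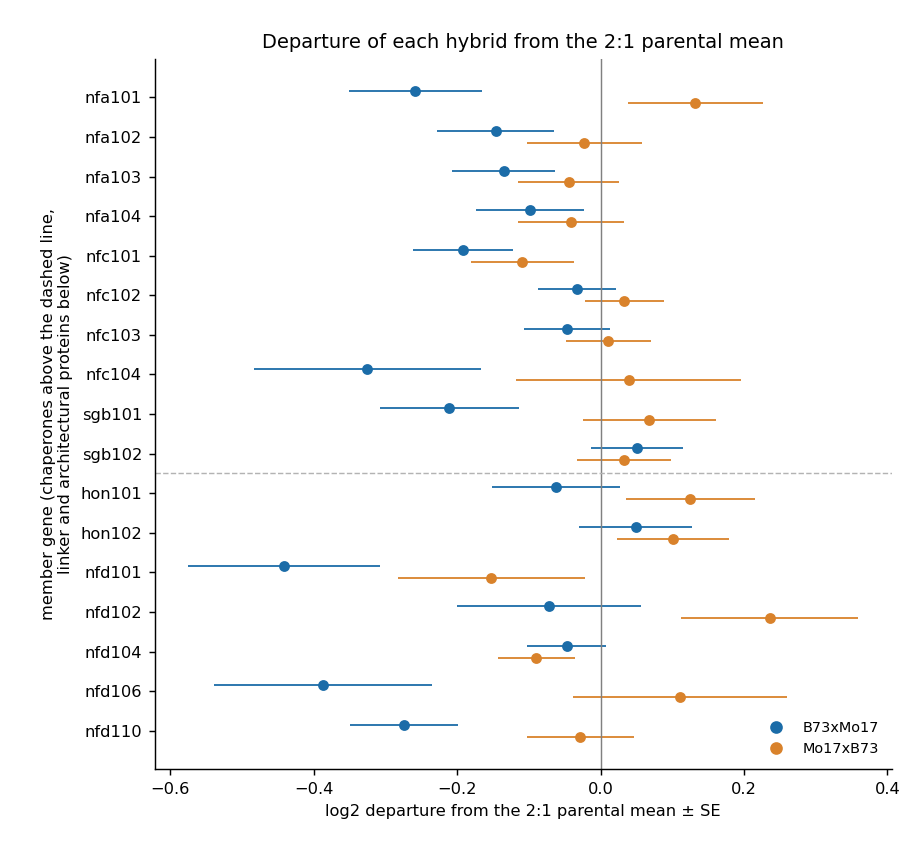
Log2 departure, with its SE, of each hybrid from its 2:1 parental mean, for the 17 chaperone, assembly, linker histone and architectural genes. In B73xMo17 9 of 10 and 6 of 7 lie left of 0, and in Mo17xB73 4 of 10 and 3 of 7 do. Over all tested probe sets the departure was positive in 46.7% and 44.2%. No point passed the test without the crossing date as a block.

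With genotype in the model, 8 members were called for date, 16.3% against 18% of all probe sets. The chromomethylase gene met2 had the widest range over dates, 0.55 on the log2 scale (adjusted p = 0.00147), and its lowest array came from the first date in every genotype and its highest from the second. The bromodomain gene gte102 had its highest array on the first date in every genotype (range 0.42, adjusted p = 0.00723). The MSI1-type gene nfc104 (0.40, adjusted p = 0.0107) and nfd101 (0.34, adjusted p = 0.0472) were lowest on the first date on average, as were the linker histone genes hon101 (0.25, adjusted p = 0.0184) and hon102 (0.20, adjusted p = 0.0200). dmt106 was lowest on the second date (0.32, adjusted p = 0.0308), and met5 was highest on it (0.26, adjusted p = 0.0252). Of these 8, nfd101 was also called between the inbreds and none between the hybrids in the fit without date. With date as a block, met2, gte102 and hon102 were called between the inbreds as well, and met2, met5, nfc104 and hon101 between the hybrids. What differed between the 3 dates is not given in the labels and was not tested.

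**Figure D5:**
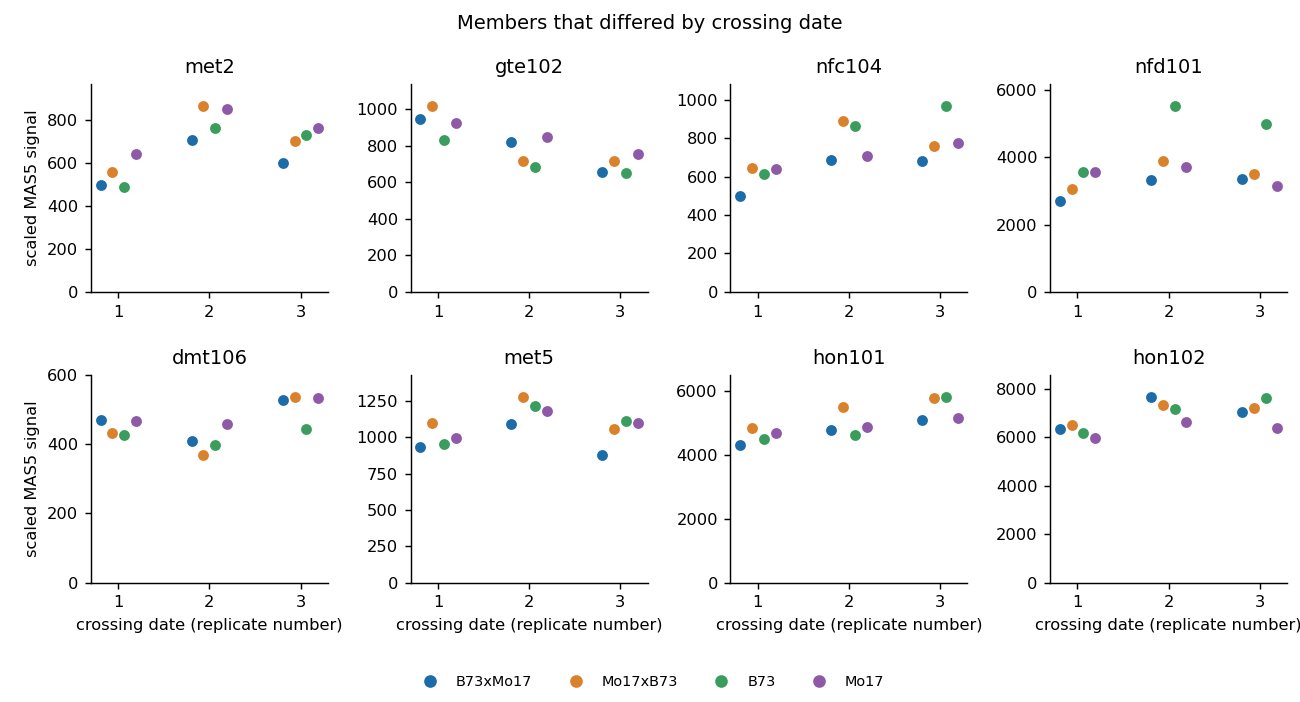
Scaled signal of the 8 genes called for crossing date, with dates 1 to 3 on the x axis and 1 point per array, coloured by genotype. met2 is lowest on date 1 and highest on date 2 in each of the 4 genotypes, and gte102 is highest on date 1.

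Between the inbreds the probe sets of hdt103 disagreed, at -0.32, -0.06, -0.05 and 0.20, and the tested ones of met5 ran from -0.30 to 0.03. For the other genes with several tested probe sets, these mostly read alike. The second probe sets of nfa104 and nfd104 were called higher in B73 too, at 0.46 and 0.24. Probe sets of met5, nfc102 and hda113 were not called in the fit without date, and neither was the second probe set of sdg110, at -0.36. In limma with crossing date as a block, the met5 probe set at -0.30 and the second of sdg110 were called lower in B73 (adjusted p = 0.0313 and 0.0202). The brightest probe set of nfa104, nfc102, nfd101 and nfd104 is of a kind that can also bind transcripts of related genes, so the values of these genes are uncertain to that degree.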

How the data were processed

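The deposited values are MAS5 signal on a linear intensity scale, which the authors made with 1 value per probe set and array, per the submitters' processing notes. The sources used here do not give the scaling target, the software version or the detection calls. The table held 17734 probe sets, and 113 controls were left out. Each array was scaled so that the medians over probe sets above the pooled 40th percentile were equal. A floor of 14.8 was set (pooled 20th percentile), log2 was taken, and the 10708 of 17621 probe sets with a mean over 71.8 were tested.

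All 12 arrays entered a model of 4 genotype means, leaving 8 residual degrees of freedom, in limma 3.58.1 (R 4.3.3) with an intensity trend, two-sided, and Benjamini-Hochberg adjusted p under 0.05 was called. Errors of comparisons with the 2:1 parental mean came from the delta method. The script was tested on simulated data. Tables and figures used Python 3.11.15, pandas 2.3.3 and matplotlib 3.10.9. The number of arrays limits the precision.

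The labels tie replicate numbers to crossing dates, so the numbers pair the arrays. After removal of genotype means, arrays of different genotypes with the same number had mean correlations of 0.389, 0.375 and 0.424 (lowest 0.247), against -0.199 for different numbers. The female parent was taken to be written first, by convention and not from the labels.

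Of the probe sets, 1452 had 1 gene symbol, 1 had several and 16168 had none listed, and 1377 of the 1452 were matched to RefSeq. Of the members, 39 carry placeholder symbols and are called by a synonym. The members and the gene lists (Polycomb, histone names, replication and cell cycle, and cell type markers) were chosen with earlier results of these data known. Values on every array are given for the 8 called members with the largest difference in each pairwise comparison, the 3 brightest, the 3 dimmest and every DNA methyltransferase gene; any member could be named. Alternatives were other scalings, filters and probe sets, no trend, a date block, the geometric mean, the female parent second and leaving out arrays.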

Additional observations from a re-analysis of the deposited data

Results flagged for a closer look

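The departure from the 2:1 parental mean differed between the reciprocal hybrids for 2 members, by a test of that difference added after seeing the data. For vef101 the departure was higher in B73xMo17 than in Mo17xB73 by 0.64 ± 0.14 on the log2 scale (limma, adjusted p = 0.0191), with 0.27 ± 0.13 in B73xMo17 and -0.37 ± 0.12 in Mo17xB73. For mbd105 it was higher by 0.49 ± 0.11 (adjusted p = 0.0168), with 0.18 ± 0.09 in B73xMo17 and -0.31 ± 0.09 in Mo17xB73. In 4.08% of the members and 7.85% of all probe sets the departures differed. With crossing date as a block the adjusted p was 0.0102 for vef101 and 0.00547 for mbd105. That fit also called 6 other members, all in the opposite direction: met5, nfa101, nfc104, sgb101, nfd106 and nfd110. Neither vef101 nor mbd105 passed on the deposited values, where the differences were 0.45 for vef101 and 0.30 for mbd105. Taking the female parent as the second one written gave 0.27 for mbd105, not past the threshold.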

How the results depend on the processing

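Counts of called members are given here where they moved by over 1.5 times. The share of all probe sets called at the same setting is not beside them, so they describe no trait of the members. On the deposited values without scaling they were 5 for B73xMo17 minus B73, 1 for Mo17xB73 minus Mo17, 29 for B73xMo17 minus Mo17, 6 for Mo17xB73 minus B73, 16 for B73xMo17 minus the 2:1 mean and 2 for date, and the 2 members whose departures differed were not the 2 of the scaled values. With equal medians over all probe sets, an alternative added after seeing the data, 1 member departed from the 2:1 mean in B73xMo17. Without a filter the counts were 1 for B73xMo17 minus B73 and 2 for date, with the filter at the 60th percentile 1 for the difference of the departures, and without the trend 5 for date. With the replicate block they were 32 for the inbreds, 21 for the reciprocal hybrids, 8 for B73xMo17 minus B73, 8 for Mo17xB73 minus Mo17, 7 for B73xMo17 minus the 2:1 mean and 8 for the difference of the departures. Without both dim arrays they were 2 for the reciprocal hybrids, 1 for B73xMo17 minus B73, 8 for B73xMo17 minus Mo17, 0 for the difference of the departures and 2 for date; the lone B73xMo17 array was assumed to vary like the other genotypes. With a geometric 2:1 mean 2 members departed in B73xMo17. With the female parent second 9 departed in B73xMo17, 5 in Mo17xB73 and 17 between the hybrids. The direction turned for mbd101 (-0.076) and sgb101 (-0.012) in B73xMo17 minus Mo17 on the deposited values, and for hdt103 with its dimmest probe set (0.20 in B73 minus Mo17, 0.21 in B73xMo17 minus Mo17). Leaving out 1 array at a time gave 16 to 23 for the inbreds, 6 to 12 for the reciprocal hybrids, 0 to 3 for B73xMo17 minus B73, 2 to 5 for Mo17xB73 minus Mo17, 13 to 17 for B73xMo17 minus Mo17, 8 to 14 for Mo17xB73 minus B73, 0 to 1 and 0 to 0 for the 2:1 means of B73xMo17 and Mo17xB73, and 0 to 3 for the difference of the departures. The cause of these changes was not tested. The calls between the inbreds of ada2, hag101, hxa103, hac108, SDG123, mbd108, mbd109, nfc101, sgb101 and sgb102 kept their direction and side of the threshold in all 22 alternatives.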
